A study of Mus musculus with 48 samples.

Results

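The comparison described here asks whether cisplatin changed resident dendritic cells of a tumor-draining lymph node (TDLN) differently from those of another lymph node (LN). It rests on the 12 resident dendritic cell libraries among the 48 RNA-seq libraries of the series, chosen by their labels, with 3 libraries in each of 4 groups: TDLN with Cisplatin, TDLN with PBS, LN with Cisplatin and LN with PBS. Every one of these libraries carries the genotype Wild type. The design text speaks of tumor-bearing mice given cisplatin, a platinum drug, whose nodes were dissociated and sorted, and PBS is the buffer of the controls. The tumor type, the dose, the time after treatment, the age of the mice, the sort gate and the site that the LN drained are not stated in the sources used here. The columns read as LN carry the tag WT, and were matched to the LN labels because no other group was left for them. Whether the 3 libraries within a group are separate animals is not stated, and the p-values therefore measure the spread between libraries, which may be technical.

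Resident dendritic cells live in the lymph node itself and arise there from blood-borne precursors, while migratory dendritic cells travel in from the drained tissue. The resident pool holds a cross-presenting kind (cDC1), known for XCR1, CLEC9A and the growth factor receptor FLT3, and a SIRPα-positive kind (cDC2). Both take up antigen arriving in the lymph and present it to T cells. Cisplatin crosslinks DNA and is known to damage dividing cells, and dying tumor cells give off antigen and danger signals that reach the draining node.

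All 11 resident dendritic cell markers had counts in all 12 libraries. The summed level of the 10 that were tested was 5325 to 6399 CPM in TDLN with cisplatin and 5833 to 6148 in TDLN with PBS. CPM are read counts scaled by library size with TMM factors. In LN it was 3481 to 3702 with cisplatin and 4308 to 4589 with PBS. Irf8 had the highest level of the list in TPM, the other deposited measure. It stood at 1778 to 3833 TPM over the 12 libraries, against 175 to 287 for Sirpa, 43.1 to 82.2 for Xcr1 and 32 to 90.5 for Clec9a. The summed level may therefore largely follow Irf8. By gene, 4 of the 10 were higher and 3 lower in TDLN than in LN with PBS (median log2 difference 0.02). With cisplatin 7 were higher and 0 lower (median 0.53). Markers of other cells were present too. The plasmacytoid dendritic cell list summed to between 2926 and 6015 CPM and the B cell list to between 2537 and 5233 CPM over the 12 libraries. Of the 10 plasmacytoid genes, 10 were higher in TDLN than in LN with PBS and 9 with cisplatin. All 11 B cell genes were lower in TDLN in both comparisons. Of all genes tested, 14.9% were higher and 12.1% lower with PBS, and 7.83% and 6.97% with cisplatin. The share of these cells in the sort was not tested. Total counts were 14869939, 10733509 and 14587911 in LN with PBS and between 2721840 and 3842097 in the other 9 libraries, so depth and this group cannot be told apart. TDLN cisplatin library 2 stood apart from the other libraries of its group: counts differed from theirs with a chi-square per degree of freedom of 13.0 and 12.6, against 1.89 to 6.87 for every other pair within a group. It had the lowest share of mitochondrial counts, 0.0694% against 0.105% to 0.232%. In LN with PBS, library 2 had counts in 27541 genes, against 38519 and 37078 in libraries 1 and 3. In bulk libraries, fewer cells of a type and less RNA per cell cannot be told apart.

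Cisplatin had a different effect in the 2 nodes for 745 of the 14023 genes tested (5.31%), by edgeR's quasi-likelihood test of the interaction with Benjamini-Hochberg adjusted p under 0.05. The interaction is the log2 fold change of cisplatin over PBS in TDLN minus that in LN, and it was positive for 367 genes (2.62%) and negative for 378 (2.7%). Within TDLN, cisplatin raised 56 genes (0.399%) and lowered 86 (0.613%), together 1.01% of the genes tested. Within LN it raised 1504 (10.7%) and lowered 1005 (7.17%), together 17.9%. The shares depended on level. Of the 2366 genes with a mean of 1 to 4 CPM, 744 rose and 19 fell in LN, and 3.85% had a called interaction. Of the 638 genes with a mean of at least 256 CPM, 52 rose and 125 fell in LN, and 13.5% had a called interaction. The list counts given below are to be read against the shares over all genes and those by level. At an unadjusted p under 0.05, 1324 of the 14023 genes passed in TDLN, 4305 in LN and 2802 in the interaction. With any 1 library left out, at most 613 passed in TDLN, 4158 in LN and 1784 in the interaction. List counts at those settings are to be read against these numbers. The classes rest on the adjusted calls in all 12 libraries. By these, 69 genes had opposite effects (0.492% of genes tested), 563 an LN-specific effect (4.01%), 41 a TDLN-specific effect (0.292%) and 15 a shared effect (0.107%). A node-specific gene passed the test in 1 node and in the interaction but not in the other node. For 270 of the 563 LN-specific genes and 17 of the 41 TDLN-specific genes, the 95% interval of the log2 fold change in the other node lay within 0.5 of zero.

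These counts leaned on TDLN cisplatin library 2. Without it 1784 genes passed the interaction test, and the counts were 162 opposite, 1173 LN-specific, 195 TDLN-specific and 126 shared genes. Of the original members, 67 of 69 opposite, 490 of 563 LN-specific, 33 of 41 TDLN-specific and 13 of 15 shared genes kept their class. Leaving out TDLN PBS library 3 gave the fewest interaction calls, 485, with 45 opposite, 26 TDLN-specific and 369 LN-specific genes. Without TDLN PBS library 1 or library 2 there were 44 opposite genes in each case. The shared count was 9 without TDLN PBS library 2 and also 9 without LN cisplatin library 1. LN with PBS was the group farthest from the other 3 for 384 of the 745 genes, LN with cisplatin for 208, TDLN with PBS for 96 and TDLN with cisplatin for 57. Over all 14023 genes tested the counts were 4952, 3824, 2796 and 2451, so LN with PBS was the most frequent there too.

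**Figure D1:**
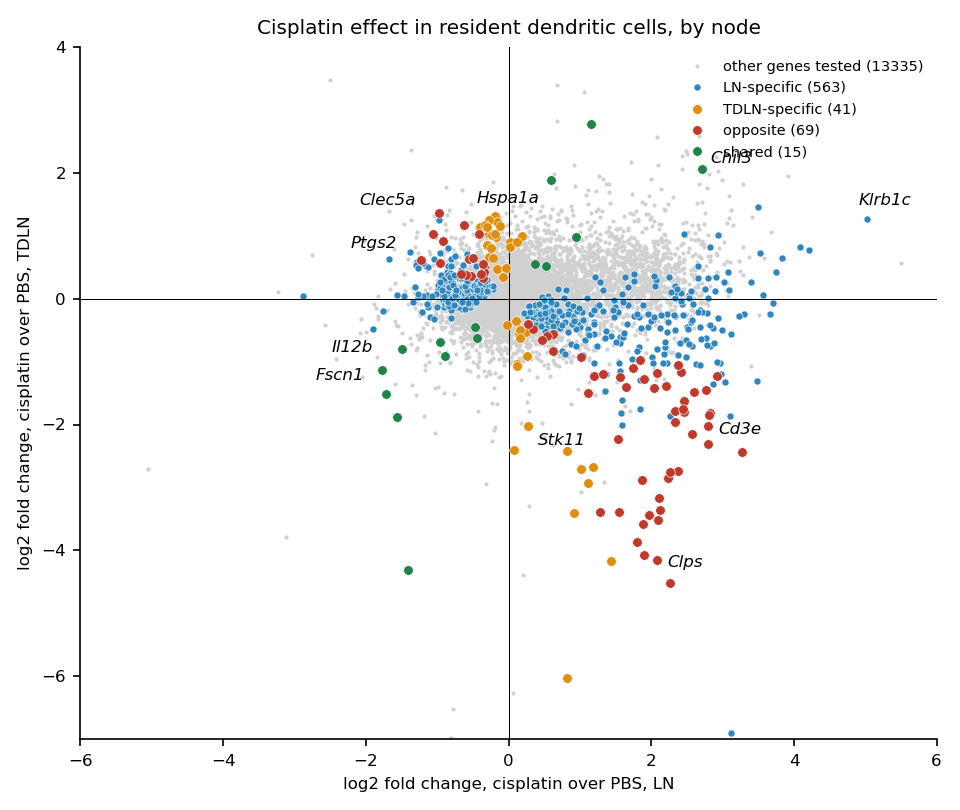
Each point is 1 gene of the 14023 tested, with the log2 fold change of cisplatin over PBS in LN on the horizontal axis and in TDLN on the vertical axis; colours mark the 69 opposite, 563 LN-specific, 41 TDLN-specific and 15 shared genes. Opposite genes lie in the upper left and lower right quadrants, and the lower right holds 52 of the 69; 9 genes lie beyond the axes.

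Opposite effects took 2 forms. For 17 genes cisplatin raised the level in TDLN and lowered it in LN, and these included inflammatory, immediate early and myeloid genes. For 52 genes it lowered the level in TDLN and raised it in LN. These included 8 of the 12 T cell markers listed. They also included 14 of the 20 tested genes of a pancreatic acinar list that was drawn up after its values had been seen. Opposite genes had a median absolute log2 fold change of 1.39 in TDLN and 1.84 in LN. The interaction is the node difference with cisplatin minus that with PBS, so the rule for this class largely set its counts in those 2 comparisons, and they are a description. With PBS 64 of the 69 differed between the nodes, where 27% of all genes tested did (14.9% higher and 12.1% lower in TDLN). With cisplatin 52 of the 69 did, where 14.8% of all genes did (7.83% higher and 6.97% lower in TDLN).

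Ptgs2, which encodes the inducible cyclooxygenase that starts prostaglandin synthesis (chr1:150100031-150108227, plus strand of GRCm38), stood at 133, 144 and 138 CPM in TDLN with cisplatin, 91.7, 94.9 and 85.5 in TDLN with PBS, 54.6, 59.9 and 56.2 in LN with cisplatin and 144, 122 and 133 in LN with PBS. The libraries of TDLN with cisplatin and of LN with PBS were both high, those of LN with cisplatin were the lowest, and cisplatin and PBS did not overlap within either node. Its log2 fold change was 0.61 ± 0.091 (SE) in TDLN and -1.23 ± 0.091 in LN, and the interaction was 1.84 ± 0.13 (adjusted p = 9.65e-08, edgeR). Nr4a3, an orphan nuclear receptor induced at once by activating signals (chr4:48045153-48086447, plus strand), was measured at 85.4, 94.4 and 72 CPM in TDLN with cisplatin, 55.8, 54.5 and 60.6 in TDLN with PBS, 42.4, 49.9 and 44.9 in LN with cisplatin and 87.3, 87.8 and 91.2 in LN with PBS. TDLN with cisplatin and LN with PBS were again the high groups, and the interaction was 1.52 ± 0.15 (adjusted p = 8.89e-06, edgeR).

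The promoters of these genes are shown because the pair rose together in one node and fell together in the other. Each window runs from 250 bases before to 50 bases after the RefSeq start, on the gene's strand in GRCm38.p6, and capitals mark TGACG or its reverse complement CGTCA, the core of the site bound by CREB and ATF factors. TGACG on either strand occurs in 20.8% of the 32851 mouse promoter windows of this length. The Ptgs2 window (chr1:150099781-150100080, plus strand) held 1 match and the Nr4a3 window (chr4:48045055-48045354, plus strand) held 4, which describes the letters and not the binding of any factor.
Ptgs2: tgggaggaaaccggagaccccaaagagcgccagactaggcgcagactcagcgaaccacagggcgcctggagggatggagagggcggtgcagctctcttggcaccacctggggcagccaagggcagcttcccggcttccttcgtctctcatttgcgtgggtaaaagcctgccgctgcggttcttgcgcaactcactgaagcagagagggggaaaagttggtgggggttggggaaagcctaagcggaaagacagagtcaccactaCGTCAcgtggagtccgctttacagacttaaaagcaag
Nr4a3: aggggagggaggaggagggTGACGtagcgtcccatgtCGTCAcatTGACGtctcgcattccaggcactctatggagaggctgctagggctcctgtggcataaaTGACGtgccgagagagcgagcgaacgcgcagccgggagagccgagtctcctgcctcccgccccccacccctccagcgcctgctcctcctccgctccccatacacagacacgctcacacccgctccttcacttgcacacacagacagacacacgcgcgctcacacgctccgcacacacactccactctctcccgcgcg

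Nr4a3 is one of the immediate early genes, which are transcribed within minutes of a stimulus. Of 23 listed and tested, Nr4a3 included, 4 rose and 0 fell with cisplatin in TDLN, 0 rose and 11 fell in LN, and 9 had a positive and 0 a negative interaction. The median log2 fold change was 0.06 in TDLN and -0.35 in LN. In TDLN 6 rose and 2 fell at an unadjusted p under 0.05, and without TDLN cisplatin library 2 the TDLN counts were 4 and 2, with a median of -0.02. The median interaction was 0.35, against -0.02 over all genes tested. Atf3, a stress-induced transcription factor, had a level of 286 ± 15.3 CPM (mean ± SD, n = 3) in TDLN with cisplatin and 222 ± 17.5 with PBS, and 264 ± 4.4 and 381 ± 5.9 in LN. Egr1, a zinc-finger factor, rose from 303 ± 0.54 to 380.1 ± 6.7 CPM in TDLN and fell from 467 ± 15.4 to 366 ± 18.8 in LN. Jun, a subunit of AP-1, was singled out after its values were seen. It rose from 462 ± 42.5 to 653 ± 68.1 CPM in TDLN and fell from 474 ± 35.2 to 373 ± 21.6 in LN. The interactions were 0.90 ± 0.11 for Atf3, 0.68 ± 0.10 for Egr1 and 0.85 ± 0.13 for Jun, with adjusted p (edgeR) of 4.68e-05, 0.000309 and 0.000628. Nr4a2 was LN-specific: it fell from 476 ± 8.1 to 288 ± 10.7 CPM in LN, while its log2 fold change in TDLN was 0.16 ± 0.074.

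The other opposite genes named for the size of their positive interaction were Clec5a, Calhm6 and Ly6i. Clec5a, a myeloid lectin receptor that signals through DAP12, stood at 7.61, 6.72 and 7.1 CPM in TDLN with cisplatin, 1.86, 3.4 and 3.28 in TDLN with PBS, 3.97, 3.64 and 3.32 in LN with cisplatin and 7.71, 5.86 and 7.84 in LN with PBS. Calhm6, a calcium homeostasis modulator family channel induced by interferon, stood at 21.5, 26 and 20.3 CPM in TDLN with cisplatin, 12, 9.46 and 11.5 in TDLN with PBS, 12.8, 11.2 and 7.48 in LN with cisplatin and 20.8, 21.4 and 23 in LN with PBS. Both were high in TDLN with cisplatin and in LN with PBS, and the cisplatin and PBS libraries did not overlap in either node. Ly6i, a member of the Ly6 surface protein family, had a mean of 34.6 ± 3.8 CPM with cisplatin and 18.4 ± 3.7 with PBS in TDLN. In LN its means were 19.5 ± 3.2 and 36.7 ± 7.6. The interactions were 2.33 ± 0.40, 2.09 ± 0.26 and 1.84 ± 0.27 (adjusted p = 0.00164, 7.43e-05 and 0.00033, edgeR).

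Macrophage and monocyte markers belong beside these genes. Of the 14 listed and tested, 4 rose and 0 fell in TDLN, where 1.01% of all genes tested passed. In LN 2 rose and 3 fell, where 17.9% of all genes passed. The summed level of these markers in TDLN was 1582 to 1666 CPM with cisplatin and 1255 to 1302 with PBS. In LN it was 1232 to 1248 with cisplatin and 1237 to 1307 with PBS. Adgre1, which encodes F4/80, was an opposite gene, with 45.7, 57 and 57.5 CPM with cisplatin and 31.4, 37.1 and 35.7 with PBS in TDLN, against 45.8, 51.3 and 48.2 and 70.9, 68.5 and 73.1 in LN. Csf1r, the CSF1 receptor of macrophages, was TDLN-specific, at 501 ± 40.1 against 359 ± 17.6 CPM in TDLN and an LN log2 fold change of -0.16 ± 0.078. Cd14, a co-receptor for bacterial lipopolysaccharide, was LN-specific and fell from 107 ± 1.8 to 58.6 ± 2.0 CPM there. The part of macrophage or monocyte RNA in the opposite genes was not tested.

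T cell genes went the other way. Of the 12 T cell markers tested, 0 rose and 9 fell with cisplatin in TDLN, 10 rose and 0 fell in LN, and 0 had a positive and 10 a negative interaction. The list's median log2 fold change was -1.24 in TDLN and 1.89 in LN, against 0.0025 and 0.0089 over all genes tested. Cd3e, a chain of the CD3 complex (chr9:44998740-45009627, minus strand), stood at 11.9, 11.1 and 11.2 CPM in TDLN with cisplatin, 34.8, 45 and 42 in TDLN with PBS, 34.8, 36.1 and 32.4 in LN with cisplatin and 6.19, 2.93 and 5.04 in LN with PBS. The libraries of TDLN with PBS and LN with cisplatin were high and overlapped each other, and those of LN with PBS were the lowest. Cd3d, another CD3 chain, stood at 4.3, 4.67 and 3.72 CPM in TDLN with cisplatin, 23.1, 19.3 and 20.6 in TDLN with PBS, 14.6, 17.2 and 17.7 in LN with cisplatin and 2.48, 1.51 and 2.94 in LN with PBS. The interactions were -4.65 ± 0.28 for Cd3e and -5.11 ± 0.33 for Cd3d (adjusted p = 2.16e-08 and 3.64e-08, edgeR).

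Lck, the kinase that starts T cell receptor signalling, fell from 138 ± 11.9 to 58.1 ± 11.1 CPM in TDLN and rose from 42.1 ± 7.2 to 125 ± 7.7 in LN. Tcf7, the TCF-1 transcription factor of T cells, fell from 72.6 ± 4.5 to 27.7 ± 1.8 CPM in TDLN and rose from 14.4 ± 2.1 to 66.9 ± 4.9 in LN. The summed level of the T cell list was 796 to 875 CPM in TDLN with cisplatin, 1239 to 1282 in TDLN with PBS, 728 to 766 in LN with cisplatin and 410.2 to 484 in LN with PBS. Cd4 and Cd8b1, which dendritic cells and their plasmacytoid kin can also express, are part of that sum. Tcf7 and Lck were also measured in migratory dendritic cell libraries, at 87.7 to 187 TPM and 22.9 to 31.4 TPM, against 8.76 to 49.0 and 34.9 to 126 in resident libraries. The share of T cells in the sort was not tested. Among tested genes of low level, the median log2 fold change in LN was above zero. It was 0.849 for the 2366 genes with a mean of 1 to 4 CPM. For the 3499 genes at 4 to 16 CPM it was 0.0832, and for the 4533 at 16 to 64 CPM -0.0431. The filter on low counts keeps a low gene mainly where a group is high, so it may have shaped these medians. Its part was not tested.

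**Figure D2:**
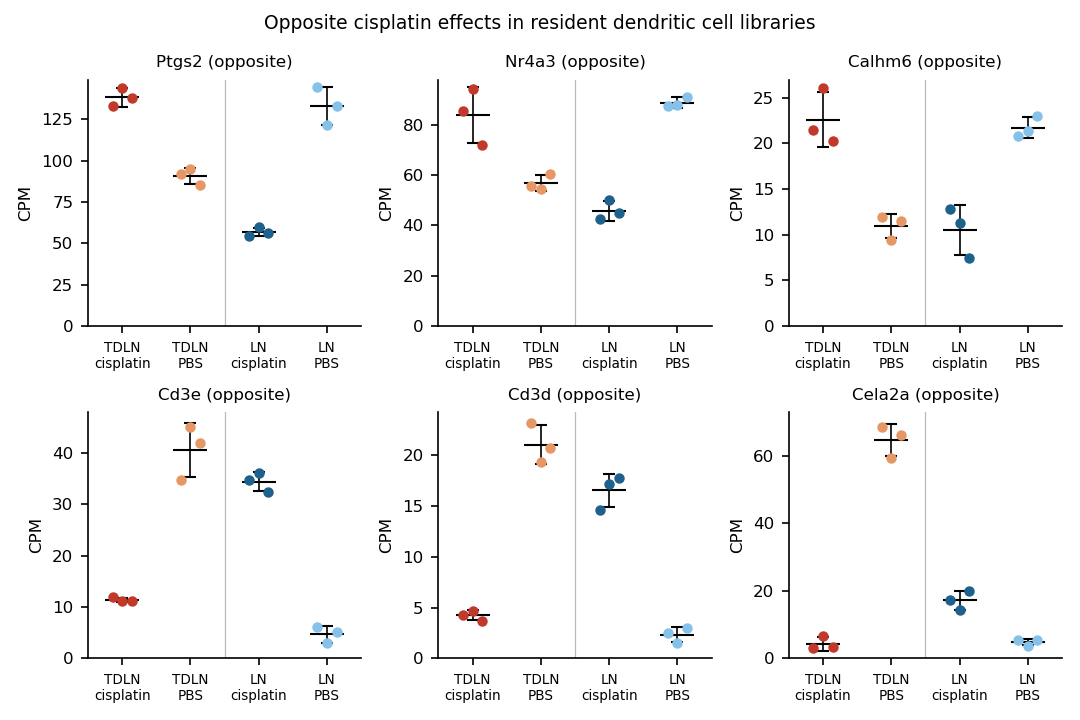
CPM in every library for 6 opposite genes, with the mean and SD of each group of 3 as black lines and a vertical grey line between the nodes. Ptgs2, Nr4a3 and Calhm6 are high in TDLN with cisplatin and LN with PBS, and Cd3e, Cd3d and Cela2a are high in TDLN with PBS and, less so for Cela2a, in LN with cisplatin.

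The opposite genes with the largest negative interactions encode pancreatic digestive enzymes or their partners. Clps encodes colipase, Amy2a1 a pancreatic amylase, Cela2a an elastase, and Try4 and Try5 trypsins. Cela2a (chr4:141814962-141826160, minus strand) stood at 2.98, 6.72 and 3.38 CPM in TDLN with cisplatin, 68.6, 59.4 and 66.2 in TDLN with PBS, 17.4, 14.2 and 19.9 in LN with cisplatin and 5.44, 3.78 and 5.39 in LN with PBS. Its libraries separated completely by treatment in both nodes, with TDLN with PBS the highest. Clps stood at 0.331, 0.877 and 0.676 CPM in TDLN with cisplatin, 11.2, 10.6 and 13.4 in TDLN with PBS, 4.88, 4.63 and 4.99 in LN with cisplatin and 1.24, 0.756 and 1.33 in LN with PBS, low levels that rest on 1 to 42 counts per library. The interactions were -5.67 ± 0.31 for Cela2a, -6.24 ± 0.55 for Clps, -5.97 ± 0.81 for Amy2a1, -5.61 ± 0.42 for Try4 and -5.48 ± 0.66 for Try5 (largest adjusted p = 0.000178, edgeR).

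A list of 30 pancreatic acinar genes was drawn up after these values had been seen, and its counts are a description only. Of its 20 genes tested, 0 rose and 19 fell with cisplatin in TDLN, and 15 rose and 0 fell in LN. The summed level was 355 to 366 CPM in TDLN with PBS, 103 to 109.8 in LN with cisplatin, 31.4 to 42.7 in TDLN with cisplatin and 24 to 35.1 in LN with PBS. On a scale common to the 24 dendritic cell libraries, migratory dendritic cells from LN with cisplatin held 939 to 1097 CPM of the same genes, more than any resident group. Those from LN with PBS held 170 to 186 CPM. In TDLN the migratory sums were 218 to 243 CPM with cisplatin and 100.1 to 105 with PBS. The resident TDLN sums on that scale were 28.1 to 37.6 with cisplatin and 316 to 328 with PBS, a change in the other direction. Amylase and trypsin genes have near-identical copies, so the level of a single copy is uncertain. The source of these transcripts in a lymph node sort was not tested.

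TDLN-specific effects covered 41 genes, 22 raised and 19 lowered. The raised genes included heat shock and interferon-response genes. Hspa1a and Hspa1b encode inducible HSP70, the chaperone made under protein stress. Hspa1b stood at 420.2, 636 and 408 CPM in TDLN with cisplatin, 245, 202 and 199.9 in TDLN with PBS, 215, 227 and 234 in LN with cisplatin and 298, 256 and 293 in LN with PBS. The 3 libraries of TDLN with cisplatin were above all 9 others, and library 2 of that group, which stood apart in general, was the highest. Hspa1a had means of 376 ± 113 CPM with cisplatin and 158 ± 30.5 with PBS in TDLN, and 218 ± 26.2 and 263 ± 23.2 in LN. The TDLN log2 fold change was 1.18 ± 0.14 for Hspa1b and 1.26 ± 0.17 for Hspa1a, with LN values of -0.33 ± 0.14 and -0.27 ± 0.16, and interactions of 1.50 ± 0.19 and 1.53 ± 0.24 (adjusted p = 0.00011 and 0.000624, edgeR).

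The Hspa1a and Hspa1b windows are shown because the genes are near-copies whose reads cannot be told apart with confidence, so their values are best read together. The windows (chr17:34972107-34972406, minus strand for Hspa1a and chr17:34959189-34959488, minus strand for Hspa1b, GRCm38.p6, RefSeq starts) were identical at 296 of 300 bases. Capitals mark GAANNTTC, a core of the element bound by heat shock factor, which reads the same on both strands and occurs in 7.86% of the 32851 promoter windows. Each held 1 match, at the same distance from the start.
Hspa1a: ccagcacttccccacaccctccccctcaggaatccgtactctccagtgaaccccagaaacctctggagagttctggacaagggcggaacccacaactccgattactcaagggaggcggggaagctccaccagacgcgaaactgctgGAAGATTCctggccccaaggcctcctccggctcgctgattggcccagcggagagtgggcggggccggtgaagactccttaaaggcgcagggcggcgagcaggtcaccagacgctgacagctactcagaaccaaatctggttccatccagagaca
Hspa1b: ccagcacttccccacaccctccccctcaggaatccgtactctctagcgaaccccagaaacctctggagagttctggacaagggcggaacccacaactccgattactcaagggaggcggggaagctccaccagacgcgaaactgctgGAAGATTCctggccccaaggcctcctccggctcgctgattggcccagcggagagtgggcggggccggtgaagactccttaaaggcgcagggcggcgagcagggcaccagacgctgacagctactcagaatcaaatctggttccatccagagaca

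The heat shock list as a whole did not move in 1 direction. Of its 16 tested genes, 2 rose and 1 fell in TDLN, with a median of 0.05. In LN 1 rose and 2 fell (4 and 6 without TDLN cisplatin library 2), with a median of 0.02. Of all genes tested, 1.01% passed in TDLN and 17.9% in LN. Hsph1, an HSP110 chaperone, fell in TDLN from 116 ± 6.6 to 82.2 ± 3.5 CPM, although without a filter on low counts the adjusted p of its interaction was 0.222. Hap1, a huntingtin-associated trafficking protein, had 12.9, 21.9 and 18.2 CPM with cisplatin and 6.91, 9.46 and 6.88 with PBS in TDLN, against 13.5 ± 0.32 and 15.2 ± 0.69 in LN. Its interaction of 1.38 ± 0.28 had an adjusted p (edgeR) of 0.0062, and of 0.0533 when the deep libraries were thinned.

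Interferon-response genes leaned upward in TDLN. Of the 34 type I interferon response genes tested, 4 rose and 0 fell in TDLN, and without TDLN cisplatin library 2 the counts were 15 and 0. At an unadjusted p under 0.05 they were 24 and 0. In LN 2 rose and 1 fell, and the medians in TDLN and LN were 0.42 and 0.04. The interaction was positive for 4 and negative for 0 of them, and for 14 and 0 without that library. Oas2, which makes the 2-5A messenger that activates RNase L, stood at 24.5, 21 and 24.7 CPM in TDLN with cisplatin, 9.31, 8.32 and 13.8 in TDLN with PBS, 20.4, 15.5 and 15.2 in LN with cisplatin and 19.5, 17.5 and 18.7 in LN with PBS. The PBS libraries of TDLN were low, and the other 3 groups were within 15.2 to 24.7 CPM. Its TDLN log2 fold change was 1.15 ± 0.20, its LN value -0.12 ± 0.16 and its interaction 1.28 ± 0.26 (adjusted p = 0.0054, edgeR). Oasl2, a relative of Oas2, rose from 26.1 ± 5.1 to 46.6 ± 2.4 CPM in TDLN, with an LN log2 fold change of 0.01 ± 0.13. The call of its interaction was lost without TDLN PBS library 3 or without LN PBS library 3 (adjusted p = 0.0646 and 0.0585, edgeR).

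Among 20 guanylate-binding protein and interferon-gamma response genes, 3 rose and 0 fell in TDLN, where 1.01% of all genes tested passed. In LN 1 rose and 3 fell, a share near the 17.9% of all genes tested. Irgm1, an immunity-related GTPase, rose from 106 ± 8.1 to 149 ± 7.5 CPM in TDLN and stood at 118 ± 2.6 and 121 ± 1.0 in LN. Nfkbiz, an inhibitor of κB family protein that steers inflammatory transcription, rose from 164 ± 5.3 to 297 ± 37.4 CPM in TDLN, and its LN log2 fold change was -0.31 ± 0.11 (interaction adjusted p = 0.000125, edgeR).

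Genes lowered in TDLN alone included Stk11, Trib2, migration receptors and acinar proteases. Stk11, the tumor suppressor kinase LKB1 (chr10:80115803-80130682, plus strand), stood at 19.9, 21.9 and 17.2 CPM in TDLN with cisplatin, 80.8, 87.4 and 73.4 in TDLN with PBS, 18.6, 21.2 and 19.9 in LN with cisplatin and 15.9, 17.4 and 16.4 in LN with PBS. The 3 libraries of TDLN with PBS were high and the other 9 lay within 15.9 to 21.9 CPM. Its TDLN log2 fold change was -2.03 ± 0.13 and its interaction -2.29 ± 0.19 (adjusted p = 5.68e-07, edgeR). Trib2, a pseudokinase that promotes protein turnover, fell from 43.6 ± 2.5 to 20.9 ± 1.5 CPM in TDLN, where LN held 43 ± 2.5 and 39.5 ± 1.0, so that the TDLN cisplatin libraries were the low ones. Ighe, the IgE heavy chain gene, singled out after its values were seen, had the same pattern as Stk11, with 54, 53.7 and 62.3 CPM in TDLN with PBS and at most 1.17 CPM in the other 9 libraries. The call of its interaction was lost without LN cisplatin library 2 (adjusted p = 0.0794, edgeR).

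Ccr7, the receptor that guides dendritic cells and T cells into the node, fell from 1119 ± 19.1 to 758 ± 58.8 CPM in TDLN, while LN held 1273 ± 54.6 with cisplatin and 1151 ± 41.8 with PBS. S1pr1, the receptor that lets lymphocytes leave the node, fell from 184 ± 3.4 to 119 ± 9.4 CPM in TDLN, with an LN log2 fold change of 0.16 ± 0.077. T cells express both genes, and the T cell list had a median log2 fold change of -1.24 in TDLN and 1.89 in LN. Migratory dendritic cell markers, Ccr7 among them, had medians of -0.85 in TDLN and -0.60 in LN. The part of either cell type in the falls of Ccr7 and S1pr1 was not tested. Ctrb1 and Ctrl, which encode chymotrypsinogen and a chymotrypsin-like protease of acinar cells, fell by 4.17 and 2.70 on the log2 scale in TDLN. In LN their log2 fold changes of 1.43 ± 0.49 and 1.01 ± 0.39 missed the threshold (adjusted p = 0.0515 and 0.0857, edgeR), which does not show that they lacked the LN rise of the other acinar genes.

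LN-specific effects were the most frequent, with 272 genes raised and 291 lowered. The largest rises were in genes of natural killer (NK) and other cytotoxic cells. Klrb1c, which encodes the NK1.1 antigen (chr6:128778485-128789215, minus strand), stood at 4.3, 4.67 and 4.06 CPM in TDLN with cisplatin, 1.86, 2.27 and 1.31 in TDLN with PBS, 22.3, 15.9 and 20.2 in LN with cisplatin and 0.688, 0.378 and 0.63 in LN with PBS. LN with cisplatin stood above the other 3 groups, and LN with PBS was the lowest, with 4 to 10 counts per library. Its LN log2 fold change was 5.02 ± 0.29, and in TDLN it was 1.26 ± 0.37 (adjusted p = 0.167), with an interaction of -3.75 ± 0.52 (adjusted p = 0.000221, edgeR). All 9 NK and innate lymphoid markers tested rose in LN, 0 of 9 passed in TDLN in either direction (2 at an unadjusted p under 0.05, both higher, and 1 by DESeq2), and 6 had a negative interaction. Their summed level was 110.1 to 123 CPM in LN with cisplatin, 8.6 to 17.3 in LN with PBS, 41.8 to 44.7 in TDLN with cisplatin and 36.7 to 44.6 in TDLN with PBS.

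Gzma, which encodes granzyme A, had 11.6, 9.92 and 7.48 CPM in LN with cisplatin and 0.55, 0.283 and 0.63 with PBS. Klrc1, which encodes the inhibitory receptor NKG2A, had 14.3, 18.2 and 17.5 and 2.41, 0.567 and 1.05 CPM in the same groups. Fasl, the death ligand, had 14.6, 15.2 and 19.7 and 1.93, 0.378 and 1.75 CPM, and without TDLN PBS library 1 its interaction missed the threshold (adjusted p = 0.143, edgeR). In TDLN the log2 fold changes were 0.78 ± 0.43, 0.07 ± 0.49 and 0.72 ± 0.50. Prf1, the pore-forming perforin, rose in LN from 5.21 ± 1.7 to 28.8 ± 0.46 CPM. Eomes and Gata3, transcription factors of cytotoxic and of type 2 lymphocytes, had LN log2 fold changes of 2.88 ± 0.34 and 3.12 ± 0.29. Tnfrsf9, the activation receptor 4-1BB of T and NK cells, rose from 3.07 ± 0.23 to 14.2 ± 1.9 CPM in LN. The share of NK or innate lymphoid cells in the sort was not tested.

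The LN-specific falls included genes that define or arm dendritic cells. Of 16 genes of the cDC1 program, 1 rose and 14 fell with cisplatin in LN, 0 passed in TDLN (3 at an unadjusted p under 0.05, 1 by DESeq2 and 4 without TDLN cisplatin library 2), and 9 had a positive and 1 a negative interaction. Their median log2 fold change was -0.63 in LN and 0.04 in TDLN. Xcr1, the cDC1 chemokine receptor, stood at 160.1, 146 and 148 CPM in TDLN with cisplatin, 124, 131 and 156 in TDLN with PBS, 125, 147 and 147 in LN with cisplatin and 226, 236 and 237 in LN with PBS. LN with PBS was high and the other 3 groups overlapped, with an interaction of 0.88 ± 0.13 (adjusted p = 0.000507, edgeR). Clec9a, the cDC1 receptor for dead cells, fell in LN from 66.3 ± 1.2 to 41.1 ± 3.6 CPM and stood at 58.1 ± 9.4 and 51.2 ± 2.4 in TDLN. Naaa, a lysosomal lipid hydrolase high in cDC1, fell in LN from 464 ± 7.9 to 280.0 ± 6.5 CPM. Tlr11, a receptor for microbial profilin, fell from 96.1 ± 9.7 to 50.4 ± 3.6.

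Resident dendritic cell markers, a list that shares Xcr1 and Clec9a with the cDC1 program, fell in LN as well. Of 10 resident dendritic cell markers tested, 0 rose and 7 fell in LN, 0 passed in TDLN (3 at an unadjusted p under 0.05, 1 by DESeq2 and 2 without TDLN cisplatin library 2), and 5 had a positive interaction. Flt3, the receptor on which dendritic cell numbers depend, fell in LN from 522 ± 4.6 to 339 ± 17.7 CPM, against 503 ± 15.4 with cisplatin and 522 ± 24.9 with PBS in TDLN. Its interaction was 0.57 ± 0.10 (adjusted p = 0.00185, edgeR). Zbtb46, a transcription factor of conventional dendritic cells, fell in LN from 157 ± 3.2 to 103 ± 8.5 CPM, with a TDLN log2 fold change of 0.20 ± 0.089. The rise of T cell and NK genes in LN with cisplatin moved with these falls, and its part in them was not tested.

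Il12b, the p40 subunit of IL-12 and IL-23 (chr11:44400063-44414033, plus strand), stood at 31.8, 28.9 and 27.4 CPM in TDLN with cisplatin, 39.6, 35.9 and 47.2 in TDLN with PBS, 18.3, 10.9 and 17.7 in LN with cisplatin and 58.8, 59.1 and 59 in LN with PBS. LN with PBS was the highest and LN with cisplatin the lowest group, and the groups did not overlap. The LN log2 fold change was -1.90 ± 0.15 and that in TDLN -0.48 ± 0.15 (95% interval -0.81 to -0.15, adjusted p = 0.225), so a fall in TDLN is not shown to be absent. The interaction was 1.42 ± 0.22 (adjusted p = 0.000628, edgeR). Il1b, the inflammatory cytokine IL-1β, fell in LN from 947 ± 34 to 497 ± 10.6 CPM and stood at 760.0 ± 54.7 and 731 ± 22.8 in TDLN. Of 23 NF-κB target and cytokine genes tested, 2 rose and 0 fell in TDLN, 3 rose and 7 fell in LN, and 8 had a positive and 1 a negative interaction. Without TDLN cisplatin library 2 the TDLN counts were 6 and 0.

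Chemokines that call in T cells were lower in LN with cisplatin. Cxcl9 fell in LN from 77.3 ± 4.2 to 35.3 ± 1.2 CPM, and in TDLN it was 53.5 ± 5.0 with cisplatin against 37.8 ± 6.7 with PBS (TDLN adjusted p = 0.0904, edgeR). Cxcl10 fell in LN from 25.9 ± 6.4 to 14.4 ± 1.0 CPM, and in TDLN it was 25.3 ± 3.7 against 14.8 ± 3.4 (TDLN adjusted p = 0.136, edgeR). The interactions of Cxcl9 and Cxcl10 were 1.63 ± 0.18 and 1.65 ± 0.30 (adjusted p = 1.79e-05 and 0.00264, edgeR).

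Antigen presentation genes and some costimulation genes fell in LN. Of 13 MHC class II presentation genes, 0 rose and 8 fell in LN, and 3 had a positive interaction (5 without TDLN cisplatin library 2). In TDLN 0 of 13 passed by edgeR, by DESeq2 or at an unadjusted p under 0.05, and without that library the TDLN counts were 1 higher and 1 lower. H2-Aa and H2-Eb1, which encode chains of the class II molecules that show peptides to CD4 T cells, had LN log2 fold changes of -0.54 ± 0.079 and -0.59 ± 0.093 and TDLN values of 0.01 ± 0.079 and 0.03 ± 0.093. Of 14 costimulation and checkpoint genes, 1 rose (Tnfrsf9, given above) and 4 fell in LN, with a median of -0.15, and 4 had a positive and 1 a negative interaction. Cd80, a ligand of CD28 and CTLA-4, stood at 15.9, 14 and 17.9 CPM in TDLN with cisplatin, 14.1, 16.6 and 15.4 in TDLN with PBS, 12.5, 15.2 and 13.9 in LN with cisplatin and 29.5, 30.1 and 32.2 in LN with PBS. LN with PBS was the highest group, and the other 3 groups overlapped. Cd86, the second such ligand, fell in LN from 171 ± 5.2 to 113 ± 12.2 CPM, and Tnfsf9, the ligand 4-1BBL, from 96.1 ± 3.2 to 56.8 ± 6.0. Cd83, which stabilises class II at the surface, fell in LN from 3203 ± 135 to 1984 ± 39.2 CPM, and Marcksl1, an actin-binding substrate of protein kinase C, from 274 ± 3.6 to 193 ± 6.3.

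Other LN falls named by size were Mab21l3 and Ffar2. Mab21l3, a Mab-21 family gene, stood at 7.63, 8.6 and 4.71 CPM with cisplatin and 19.2, 21.6 and 20.7 with PBS in LN, and at 13.8 ± 1.3 and 13.1 ± 0.35 in TDLN. Ffar2, a receptor for short-chain fatty acids, stood at 1.53, 2.98 and 4.43 CPM with cisplatin and 7.78, 8.32 and 8.97 with PBS in LN. Its interaction of 1.51 ± 0.43 was close to the threshold (adjusted p = 0.0484, edgeR), and it missed the threshold under 12 alternatives, with adjusted p of up to 0.115. Leaving out any of TDLN cisplatin libraries 2 and 3, TDLN PBS libraries 1 and 3, LN cisplatin libraries 1 and 2 or LN PBS libraries 1 to 3 had that effect. Nnt, which encodes a mitochondrial NADPH-producing enzyme, was listed under 2 overlapping gene identifiers that share reads. The identifier called here had 0, 11.6 and 0 CPM in LN with cisplatin, but the sum of both was 38.7 to 50.3 CPM with cisplatin and 37.3 to 42.0 with PBS in LN, so its LN effect is uncertain. The call of its interaction was lost by DESeq2 (adjusted p = 0.444) and without any library other than TDLN cisplatin libraries 1 and 2, TDLN PBS library 2 and LN cisplatin library 2 (edgeR adjusted p of up to 0.11).

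Cell cycle genes fell in LN. Of 33 proliferation genes, 14 fell and 0 rose in LN, and 0 passed in TDLN by edgeR or DESeq2 (1 at an unadjusted p under 0.05). Of these genes 1 had a called interaction, Hmgb2, a chromatin protein of dividing cells (8 genes without TDLN cisplatin library 2), with 0.68 ± 0.11. Of 21 p53 target genes, 4 rose and 1 fell in LN, where 17.9% of all genes passed, and 0 passed in TDLN by edgeR or DESeq2 (4 at an unadjusted p under 0.05). Trp53inp1, a stress-induced p53 partner, rose in LN from 47.5 ± 4.8 to 71.2 ± 10.8 CPM, with a TDLN log2 fold change of -0.34 ± 0.16, and Btg2, an antiproliferative factor, fell in LN by 0.41 on the log2 scale. The call of the Trp53inp1 interaction was lost without LN cisplatin library 3 (adjusted p = 0.0622, edgeR). Of 27 crosslink and double-strand break repair genes, 1 rose and 1 fell in LN. In TDLN 0 of the 27 passed by edgeR or DESeq2 (3 at an unadjusted p under 0.05), and 0 had a called interaction by either tool (2 at an unadjusted p under 0.05, and 1 passed without TDLN cisplatin library 2). Of 17 nucleotide excision and mismatch repair genes, 0 passed by edgeR in either node, against 2 in TDLN and 3 in LN at an unadjusted p under 0.05 and 0 and 1 by DESeq2.

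Of 14 glucocorticoid-response genes, 4 rose and 1 fell in LN, where 17.9% of all genes tested passed. In TDLN 0 passed by edgeR or DESeq2 (3 at an unadjusted p under 0.05). Tsc22d3, which encodes the glucocorticoid-induced protein GILZ, rose in LN from 627 ± 22 to 910.1 ± 67.3 CPM, with a TDLN log2 fold change of -0.21 ± 0.075 and an interaction of -0.75 ± 0.11 (adjusted p = 0.000268, edgeR). Fkbp5, a chaperone partner of the glucocorticoid receptor, rose in LN from 54.2 ± 3.4 to 76.5 ± 5.8 CPM, and the call of its interaction was lost without a filter on low counts (adjusted p = 0.102, edgeR). Tlr2, a receptor for bacterial lipoproteins, fell in LN from 96.1 ± 3.7 to 66.9 ± 2.6 CPM. Of the 20 Toll-like receptor and adaptor genes 1 rose and 5 fell in LN, against the same 17.9% of all genes. In TDLN 0 of the 20 passed by edgeR or DESeq2 (3 at an unadjusted p under 0.05).

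Shared effects numbered 15 genes, 6 raised and 9 lowered in both nodes. For 12 of them the interaction did not pass, and for 3 the direction was shared but the sizes differed. Of the 8 migratory dendritic cell markers tested, 3 were shared genes, and they fell in both nodes. Ccl22, a chemokine for regulatory T cells (chr8:94745590-94751699, plus strand), stood at 7.61, 9.64 and 8.45 CPM in TDLN with cisplatin, 19.4, 26.9 and 28.2 in TDLN with PBS, 6.41, 6.62 and 6.37 in LN with cisplatin and 22, 18.8 and 23.2 in LN with PBS. The PBS libraries were high and the cisplatin libraries low in both nodes, with log2 fold changes of -1.51 ± 0.19 in TDLN and -1.72 ± 0.19 in LN and an interaction of 0.21 ± 0.28 (95% interval -0.38 to 0.80, adjusted p = 0.741, edgeR). Fscn1, the actin bundler fascin, fell from 119 ± 11.1 to 53.9 ± 9.1 CPM in TDLN and from 111 ± 9.7 to 32.6 ± 8.2 in LN. Its interaction of 0.64 ± 0.21 had an adjusted p (edgeR) of 0.0883, and whether it is shared in size depends on the setting. It passed by DESeq2, without a filter on low counts, without TDLN cisplatin library 1 and without LN cisplatin library 1 (adjusted p = 0.0242, 0.000267, 0.0417 and 0.0147), and without both libraries that stood apart (0.0477). Cacnb3, a calcium channel subunit, fell from 30.1 ± 3.2 to 8.05 ± 3.3 CPM in TDLN and from 16.3 ± 3.5 to 5.54 ± 0.76 in LN.

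Of the 8 migratory dendritic cell markers, 4 fell in TDLN and 4 fell in LN, and 0 rose in either node. These were not the same 4: 3 were shared, 1 (Ccr7) was TDLN-specific and 1 LN-specific. On the scale of the 24 dendritic cell libraries their summed level was 866 to 1492 CPM in resident and 28407 to 35217 CPM in migratory dendritic cell libraries, and the part of migratory cells in these falls was not tested. Apol7c, an apolipoprotein L gene of dendritic cells, fell in both nodes, by 0.79 on the log2 scale in TDLN and by 1.49 in LN. The sizes differed with an interaction of 0.70 ± 0.18 (adjusted p = 0.0312, edgeR), a call lost under 7 alternatives, 5 of them the omission of TDLN cisplatin library 3, TDLN PBS library 3, LN cisplatin library 1 or LN PBS library 1 or 3 (adjusted p of up to 0.0764).

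Few genes rose in both nodes. Chil3, the chitinase-like protein Ym1 of myeloid cells, stood at 7.94, 9.06 and 8.11 CPM in TDLN with cisplatin, 2.39, 1.13 and 2.29 in TDLN with PBS, 7.02, 8.27 and 6.37 in LN with cisplatin and 1.38, 0.662 and 1.12 in LN with PBS. Cisplatin libraries were high in both nodes, with log2 fold changes of 2.06 ± 0.38 in TDLN and 2.72 ± 0.34 in LN. Without TDLN PBS library 2 the TDLN value missed the threshold (adjusted p = 0.0538, edgeR). Tbx21, the T-bet transcription factor, had log2 fold changes of 0.98 ± 0.23 and 0.95 ± 0.18, the first of which had an adjusted p (edgeR) of 0.0493. That call was lost under 11 alternatives, including the omission of any library other than TDLN cisplatin library 1 and LN PBS library 2 (adjusted p of up to 0.294). Dclre1c, which encodes the Artemis nuclease of DNA end joining, rose from 73.2 ± 2.0 to 105 ± 5.7 CPM in TDLN and from 66.5 ± 1.7 to 96 ± 9.7 in LN. Its TDLN call was lost under 3 alternatives, among them the omission of TDLN PBS library 1 or 2 (adjusted p = 0.0684 and 0.0607, edgeR), and its LN call under 1. Tmem26, a membrane protein gene, rose by 1.89 ± 0.25 in TDLN and 0.60 ± 0.19 in LN on the log2 scale, and its LN call was lost under 9 alternatives, among them the omission of TDLN PBS library 2, any LN cisplatin library or LN PBS library 1 or 3 (adjusted p of up to 0.158). Its interaction of 1.29 ± 0.32 lost its call without TDLN PBS library 1 or 3 or LN PBS library 2 (adjusted p of up to 0.0826).

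**Figure D3:**
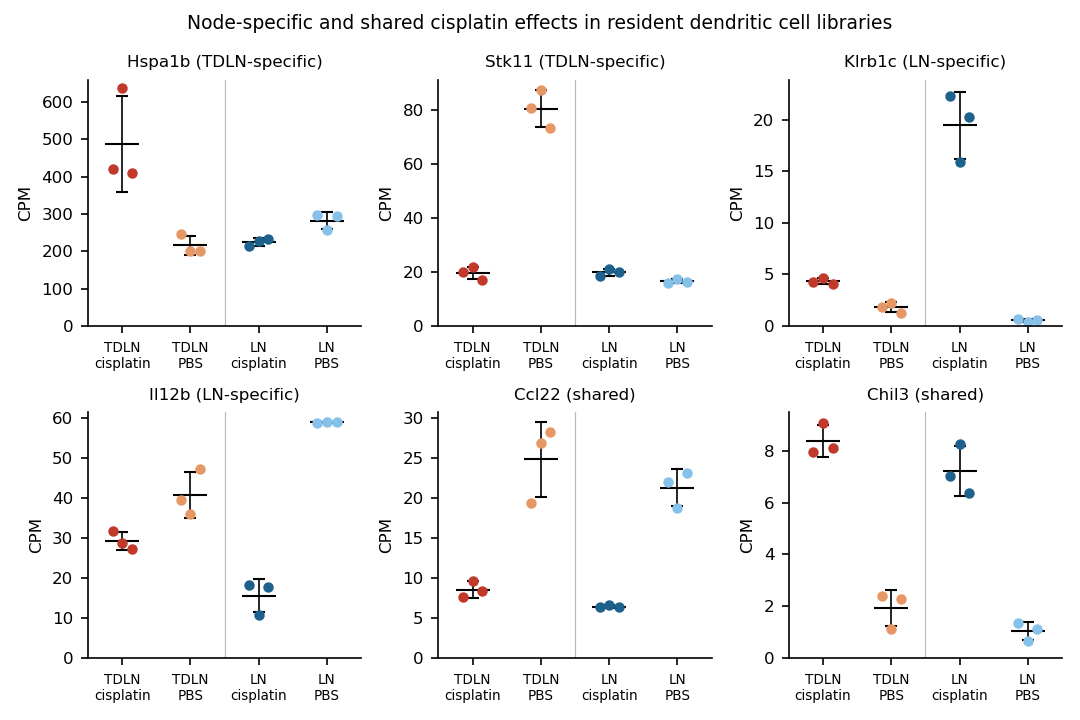
CPM in every library for 2 TDLN-specific, 2 LN-specific and 2 shared genes, with the mean and SD of each group of 3 as black lines. Hspa1b is high only in TDLN with cisplatin and Stk11 only in TDLN with PBS, Klrb1c and Il12b separate mainly in LN, and Ccl22 falls and Chil3 rises with cisplatin in both nodes.

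Il33, the cytokine in the title of the series, was near the detection limit. It stood at 2.98, 3.51 and 4.06 CPM in TDLN with cisplatin, 0, 2.27 and 0.656 in TDLN with PBS, 1.53, 3.31 and 2.49 in LN with cisplatin and 0.275, 0.283 and 0.42 in LN with PBS. Cisplatin libraries were above PBS libraries in both nodes, by 2.80 ± 0.65 in LN (adjusted p = 0.00726) and 1.98 ± 0.70 in TDLN (adjusted p = 0.292), and the interaction was -0.82 ± 0.96 (95% interval -2.85 to 1.22, adjusted p = 0.701, edgeR). Without TDLN PBS library 2 the interaction was 0.70, so its sign rests on that library. Tested genes with a mean of 1 to 4 CPM had a positive median in LN, which the filter on low counts may have shaped, as given above. Its receptor gene Il1rl1 stood at 1.75 to 5.26 CPM and passed in neither node.

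**Figure D4:**
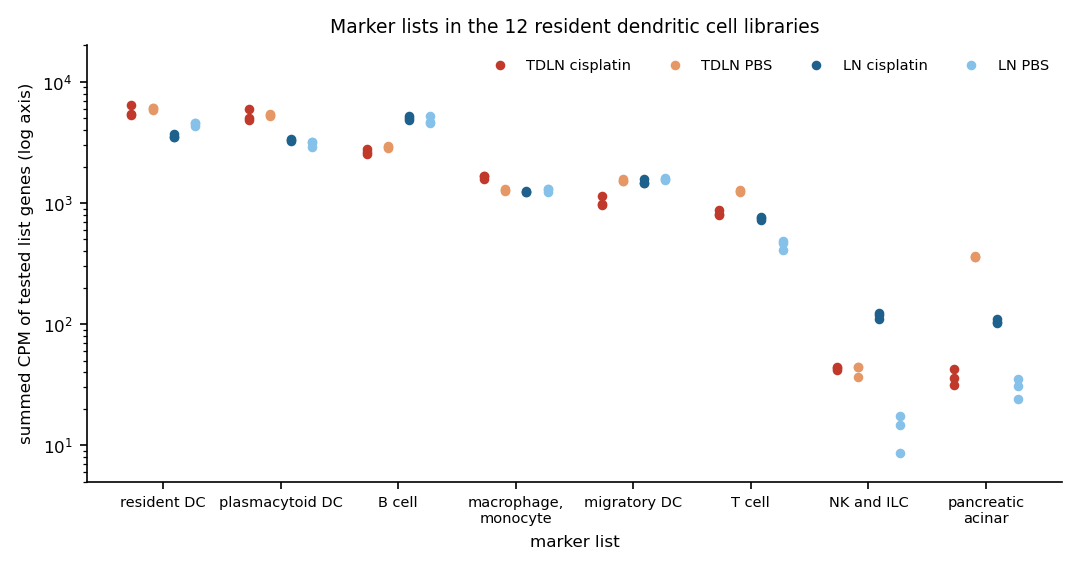
Summed CPM of the tested genes of 8 marker lists, on a log axis, in each of the 12 libraries, coloured by group. Macrophage and monocyte sums are highest in TDLN with cisplatin, T cell and pancreatic acinar sums in TDLN with PBS, and NK and innate lymphoid sums in LN with cisplatin.

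Leaving aside the acinar list, which was drawn up after its values had been seen, the NK and T cell lists had the largest median interactions in size. Among the dendritic cell lists, the cDC1 program had the largest positive median interaction, 0.66, while the 16 tested genes of the cDC2 program had 0.13. In the cDC2 list 1 rose and 1 fell in TDLN and 3 rose and 4 fell in LN. The NF-κB list had a median interaction of 0.58 and the type I interferon list 0.57, against -0.02 over all genes.

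**Figure D5:**
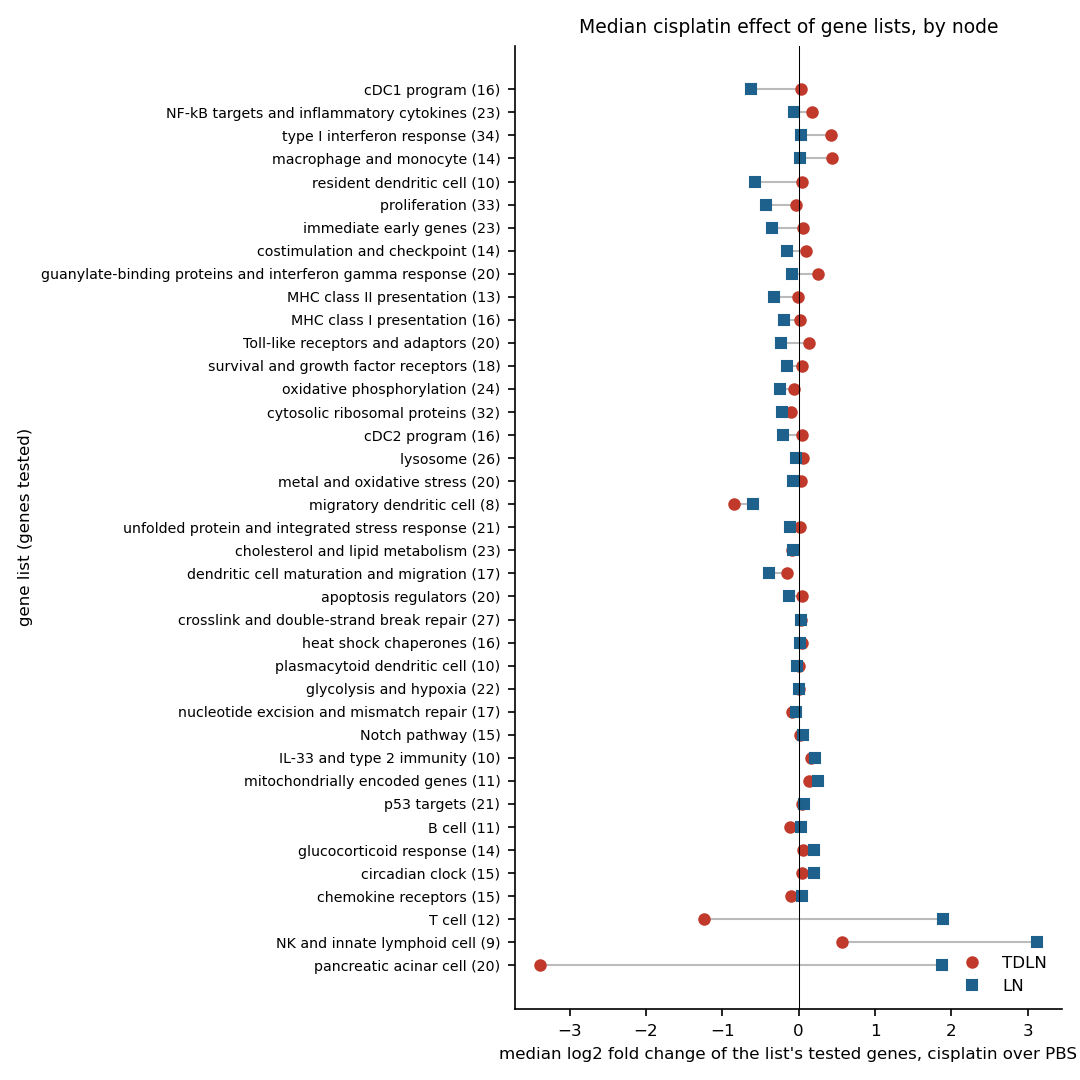
Median log2 fold change of cisplatin over PBS for the tested genes of each list with at least 8 genes tested, in TDLN as circles and in LN as squares, ordered by the median interaction. The cDC1 program falls in LN with a TDLN median near 0, T cell and acinar lists have medians of opposite sign, and migratory dendritic cell markers are below 0 in both nodes.

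The node dependence in resident dendritic cells differed from that in migratory dendritic cells of the same design. In a model of all 24 dendritic cell libraries, the resident interaction differed from the migratory one for 3052 of 14548 genes (21%), and for 2014 after deep libraries were thinned. The median difference over all genes was 0.19 on the log2 scale. The resident values that chose the classes are part of this difference, so for their members it is a description. The migratory libraries took no part in that choice: their own interaction passed the test for 26 of 69 opposite, 199 of 558 LN-specific and 19 of 41 TDLN-specific genes, in either direction, against 16.2% of all genes tested. The difference was 2.15 ± 0.16 for Ptgs2 and 2.09 ± 0.20 for Nr4a3, whose migratory interactions were -0.24 ± 0.10 and -0.51 ± 0.14. For Adgre1 it was 2.57 ± 0.26, with a migratory interaction of -1.33 ± 0.19, opposite in sign to the resident one. Stk11 likewise had a migratory interaction of 1.45 ± 0.25 and a difference of -3.68 ± 0.32. For Il12b the migratory interaction was -0.05 ± 0.12 and the difference 1.53 ± 0.23.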

How the data were processed

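RNA-seq was measured in sorted resident dendritic cells, 3 libraries in each of 4 groups, and aligned to GRCm38, per the submitters' processing notes, which also name RSEM 1.3.0 and DESeq2 1.38.3. The aligner version and the sort gate are not given in the sources used here. The authors deposited a table of expected counts, read as RSEM output and already whole in the deposited file, so that rounding changed nothing, and a table of TPM values, used only to check identity genes. A gene count from RSEM can split reads between near-identical copies.

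All 12 libraries entered one edgeR 4.0.16 quasi-likelihood model with limma 3.58.1 in R 4.3.3, after filterByExpr and TMM scaling. Calls have a Benjamini-Hochberg adjusted p under 0.05 over 14023 genes. DESeq2 1.42.0 was the alternative. The scripts were tested on simulated data. CPM values are scaled by TMM factors. SE are model standard errors. Total counts ranged from 2721840 to 14869939 per library, which limits precision for low genes.

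Gene members and lists were chosen with earlier results of these data known. Genes named for their class had a mean of at least 4 CPM and were no predicted, immunoglobulin, T cell receptor or Y-linked genes. Their cisplatin and PBS libraries did not overlap where an effect was called. They were the 5 opposite genes with the largest interactions in each direction and the 4 node-specific genes with the largest change in that node. The 4 shared genes with the largest smaller change were named too. Up to 4 genes of each list were named by smallest interaction p, with a mean of at least 4 CPM as the only other condition. Il33 and Il1rl1 were always named, whatever their level. A gene that the rule names is not reported here. Ighe, Jun and the acinar list were added after their values were seen. Promoter sequences are from RefSeq, build GRCm38.p6. Alternatives changed one choice at a time: DESeq2, other scaling factors, no filter on low counts, thinned deep libraries, a log2 threshold of 1, a replicate block, fewer or more libraries in the model, and each library left out.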

Additional observations from a re-analysis of the deposited data

Results flagged for a closer look

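The effect of cisplatin differed between TDLN and LN, by the test of the interaction itself, for 745 genes. The named genes among them are given here by the interaction on the log2 scale, each with an edgeR adjusted p under 0.05. Groups of 3 libraries are too small for the gap test of single values, so no gene's library was tested that way.

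Positive interactions, in which cisplatin moved the gene higher in TDLN relative to LN, of at least 1 were 2.93 for Nnt (a call lost by DESeq2 and under 8 omissions of a library), 2.33 for Clec5a, 2.09 for Calhm6, 1.84 for Ly6i, 1.84 for Ptgs2, 1.65 for Cxcl10, 1.63 for Mab21l3, 1.63 for Cxcl9, 1.53 for Hspa1a, 1.52 for Nr4a3, 1.51 for Ffar2, 1.50 for Hspa1b, 1.42 for Il12b, 1.38 for Hap1, 1.29 for Cd14, 1.29 for Tmem26, 1.28 for Oas2, 1.20 for Cd80, 1.18 for Adgre1, 1.17 for Nfkbiz and 1.07 for Tlr11. Smaller positive interactions were 0.99 for Il1b, 0.90 for Atf3, 0.88 for Xcr1, 0.88 for Nr4a2, 0.87 for Clec9a, 0.85 for Tlr2, 0.85 for Jun, 0.82 for Tnfsf9, 0.82 for Zbtb46, 0.81 for Oasl2, 0.80 for Cd86, 0.72 for Marcksl1, 0.70 for Apol7c, 0.69 for Naaa, 0.68 for Egr1, 0.68 for Hmgb2, 0.64 for Csf1r, 0.61 for H2-Eb1, 0.57 for Flt3, 0.55 for Cd83, 0.55 for H2-Aa, 0.53 for Irgm1 and 0.52 for Btg2.

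Negative interactions of the largest size were -6.84 for Ighe, -6.24 for Clps, -5.97 for Amy2a1, -5.67 for Cela2a, -5.61 for Try4, -5.60 for Ctrb1, -5.48 for Try5, -5.11 for Cd3d, -4.65 for Cd3e, -3.75 for Klrb1c, -3.71 for Ctrl, -3.68 for Gata3, -3.60 for Tcf7, -3.59 for Eomes, -3.50 for Klrc1 and -3.42 for Gzma. The others were -2.88 for Tnfrsf9, -2.81 for Fasl, -2.81 for Lck, -2.70 for Prf1, -2.29 for Stk11, -1.19 for Trib2, -0.93 for Trp53inp1, -0.78 for S1pr1, -0.76 for Fkbp5, -0.75 for Tsc22d3, -0.71 for Ccr7 and -0.65 for Hsph1.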

How the results depend on the processing

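The count of interaction genes, 745, was 1845 without a filter on low counts, 370 with an absolute log2 of at least 1 and 1461 in the model of 24 libraries, and 485 to 1784 with each library left out. The TDLN count, 142, was 235, 79 and, with the 6 TDLN libraries alone, 88 (82 to 613 with each library left out). The LN count, 2509, was 3919 by DESeq2, 7427 without the filter, 1171 at a log2 of 1 and 4707 with the 6 LN libraries alone (1581 to 4158). The comparison of nodes with PBS, 3781 genes, gave 6354 without the filter and 1198 at a log2 of 1 (2366 to 5406), and that with cisplatin, 2075 genes, gave 357 at a log2 of 1 (1293 to 2413). The difference from migratory cells, 3052 genes, was 2014 after thinning. Shared genes were 24 by DESeq2. Without the filter there were 40 shared, 66 TDLN-specific and 1562 LN-specific genes, and at a log2 of 1 there were 45 opposite, 6 shared, 26 TDLN-specific and 192 LN-specific genes. With each library left out, opposite genes were 44 to 162, shared 9 to 126, TDLN-specific 26 to 195 and LN-specific 369 to 1173, the highest always without TDLN cisplatin library 2. Leaving out both libraries that stood apart, an alternative chosen after seeing the data, gave 1482 interaction and 860 TDLN genes, with 177 opposite, 192 shared, 223 TDLN-specific and 875 LN-specific genes. The cause of these shifts was not tested. Without the filter the median over all genes moved to 0.235 for the interaction and -0.29 in LN.

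Replicate numbers did not pair the libraries: 0 of 18 same-numbered pairs had deviations that correlated above 0.1 (-0.133 to 0.061), and 1 of 12 libraries correlated best with its own number. With the replicate number as a block there were 565 interaction, 109 TDLN and 2095 LN genes, 3237 and 1683 between nodes with PBS and cisplatin, and 54 opposite, 15 shared, 33 TDLN-specific and 429 LN-specific genes.

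Over 80 named genes with 96 values, leaving out libraries kept direction and call in 1088 of 1152 cases, and the other settings in 650 of 672. The interaction reversed sign for 3 genes. That of Tbx21 was -0.027 without both libraries that stood apart (-0.12 to 0.26 with each library left out), that of Dclre1c 0.085 by DESeq2, 0.25 without the filter and 0.064 without both libraries (-0.064 to 0.086), and that of Il33 ranged from -1.51 to 0.70 around -0.82. Depth limits low genes, since 9 libraries held at most 3842097 counts.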

Other observations

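Other gene lists showed partial changes in LN with cisplatin, where 17.9% of all genes tested passed. Of 32 cytosolic ribosomal protein genes, 0 rose and 10 fell in LN, with a median log2 fold change of -0.22, and 0 passed in TDLN by edgeR or DESeq2 (1 at an unadjusted p under 0.05). Without TDLN cisplatin library 2, 15 of them fell in TDLN, where the median was then -0.33. Of 16 MHC class I presentation genes, 0 rose and 5 fell in LN, with a median of -0.20, and 2 had a positive interaction. Of 26 lysosome genes, 1 rose and 6 fell in LN and 4 had a positive interaction: Psap, Lipa, Gusb and Ctss, which encode the saposin precursor, lysosomal acid lipase, beta-glucuronidase and cathepsin S. Of 18 survival and growth factor receptor genes, 2 rose and 3 fell in LN and 1 rose in TDLN.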
